A study of Mus musculus with 4 samples.

Results

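The deposited list of KMT9beta ChIP-seq peaks from mouse tumour organoids held 90473 peaks, and all 89936 of them (99.4%) that lie on chromosomes 1 to 19 are described here, out of 177109 peaks in the 3 deposited lists. The organoids came from a tumour induced with azoxymethane, a carcinogen, and dextran sulfate sodium, an irritant of the colon. All libraries were made from clone 3, which is a single clone, at passage 14. The chromatin was precipitated with the study's own antibodies against KMT9beta, KMT9alpha or histone H4 monomethylated at lysine 12 (H4K12me1), or was kept as input. No genotype is stated in the labels. Both tamoxifen (1 µM) and vehicle appear in the treatment protocol, with no word on which of them these libraries received. There was 1 library per antibody, so no value has a replicate check and no p-value was computed. Each peak has a position and a score. The labels do not say what the score measures or which control it rests on, so it serves only to rank peaks within this list. The depth of the library is unknown, and the input is not analysed here.

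KMT9beta is the product of Trmt112, a small protein that partners and stabilises several methyltransferases. With KMT9alpha, the product of N6amt1, it forms the histone methyltransferase KMT9, which writes H4K12me1. With other partners TRMT112 is known to act on transfer RNA and ribosomal RNA. Transfer RNA genes are transcribed by RNA polymerase III from promoter elements inside the gene, among them the B box, whose core includes GGTTCGA.

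The sequences at a few peaks are shown first, because the list holds peaks of very different base composition. They are the central 100 bases of high-scored peaks narrower than 1000 bp, taken from the plus strand of GRCm38.p6, the assembly behind mm10, with each CpG in capitals. Only peaks whose central 50 bases have no second copy in the genome were taken, and none in an untranslated region. The first 2 are from the 3 with the highest scores among such peaks within 1 kb of a start. The peak at Lsm6, which encodes a component of the RNA decay machinery, had a score of 406.67 and that at Alkbh1, which encodes a nucleic acid demethylase, had 308.03.
Lsm6 peak (chr8:78820934-78821033): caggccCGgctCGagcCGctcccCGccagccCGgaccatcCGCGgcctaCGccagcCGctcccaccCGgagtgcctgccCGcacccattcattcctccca
Alkbh1 peak (chr12:87443661-87443760): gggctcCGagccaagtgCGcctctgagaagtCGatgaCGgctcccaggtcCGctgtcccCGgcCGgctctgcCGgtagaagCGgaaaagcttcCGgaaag
These centres held 11 and 10 CpGs and 75% and 66% G and C. The next 3 had the highest scores among such narrow peaks farther than 1 kb from any start, and are named by the nearest gene.
Tcp10c peak (chr17:13306110-13306209): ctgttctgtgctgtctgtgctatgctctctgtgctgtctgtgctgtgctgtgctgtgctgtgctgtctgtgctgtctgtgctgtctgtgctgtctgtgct
Fcgr4 peak (chr1:171038296-171038395): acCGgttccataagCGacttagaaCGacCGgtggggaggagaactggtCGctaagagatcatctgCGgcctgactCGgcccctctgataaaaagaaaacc
Cr2 peak (chr1:195241571-195241670): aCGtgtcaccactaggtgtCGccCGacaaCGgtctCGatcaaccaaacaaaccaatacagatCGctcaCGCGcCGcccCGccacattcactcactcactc
Their scores were 958.87, 898.45 and 775.41. The centre near Tcp10c is a short repeat of c, t and g with 0 CpGs, whereas those near Fcgr4 and Cr2 hold 7 and 10. The peak near Fcgr4 also covered the transfer RNA genes n-TLcag3 and n-TGtcc2, which lie outside the bases printed. These 3 narrow distal peaks therefore included a tandem repeat as well as CpG-bearing sequence. Wider distal peaks of the list had higher scores.

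The highest-scored peak over transfer RNA genes (chr1:171069587-171075028, score 1816.43, 5442 bp) covered 5 genes. All 5 carry the B box core, and 4 of them are printed here to show it. They are RefSeq genes on GRCm38.p6, written 5′ to 3′ in the direction of transcription, with GGTTCGA in capitals. In the RefSeq names the capital letter after the T is the amino acid and the 3 small letters are the anticodon.
n-TGtcc5 (chr1:171072334-171072405, minus strand): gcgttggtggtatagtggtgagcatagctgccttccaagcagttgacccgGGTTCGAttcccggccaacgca
n-TDgtc7 (chr1:171072993-171073064, minus strand): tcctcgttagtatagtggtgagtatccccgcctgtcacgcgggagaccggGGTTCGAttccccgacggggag
n-TLcag7 (chr1:171073619-171073701, plus strand): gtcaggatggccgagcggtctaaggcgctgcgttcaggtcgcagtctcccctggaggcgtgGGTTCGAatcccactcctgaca
n-TGgcc13 (chr1:171074302-171074372, plus strand): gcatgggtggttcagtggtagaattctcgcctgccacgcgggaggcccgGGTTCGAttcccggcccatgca
For each family of the 5 genes that had a member under no KMT9beta peak, the first such member in genome order was taken for comparison, and 3 of these 4 are printed.
n-TDgtc2 (chr2:114103367-114103438, plus strand): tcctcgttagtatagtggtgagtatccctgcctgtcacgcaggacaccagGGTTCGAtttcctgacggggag
n-TLcag1 (chr3:24163025-24163107, minus strand): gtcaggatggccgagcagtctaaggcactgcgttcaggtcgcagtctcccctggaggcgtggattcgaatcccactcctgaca
n-TGgcc9 (chr3:84229011-84229081, minus strand): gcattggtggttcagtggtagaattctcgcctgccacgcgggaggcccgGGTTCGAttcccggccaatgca
Of the 4 genes without a peak, n-TDgtc2 and n-TGgcc9 contain the 7 letters, and n-TLcag1 and the one not printed do not. All 7 n-TGtcc genes overlapped a peak.

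KMT9beta peaks spanned 317 to 25901 bp, with a median of 992 bp, and together covered 108.753 Mb or 4.54% of the autosomes. Scores ran from 50 to 3100 with a median of 87.07, and 95% of peaks had a score of 340.11 or less. Width went with score. Peaks were put in 4 equal classes of score, from class 1 with the lowest to class 4 with the highest, above 140.66. The median width was 739 bp (95% interval 737 to 741) in class 1, 879 bp and 1114 bp in classes 2 and 3, and 1741 bp (1732 to 1750) in class 4. Spearman's rho between width and score was 0.83 over the 89936 peaks, which come from 1 library and 1 peak calling. Away from promoters classes 1 and 4 of the whole list had medians of 737 and 1755 bp, and at promoters 759 and 1717 bp. Peaks of 500 to 1000 bp made up 49.8% of the list and those of 1000 to 2000 bp 40.02%. All intervals are exact 95% intervals that cover counting over peaks only, and neighbouring peaks are not independent.

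**Figure D1:**
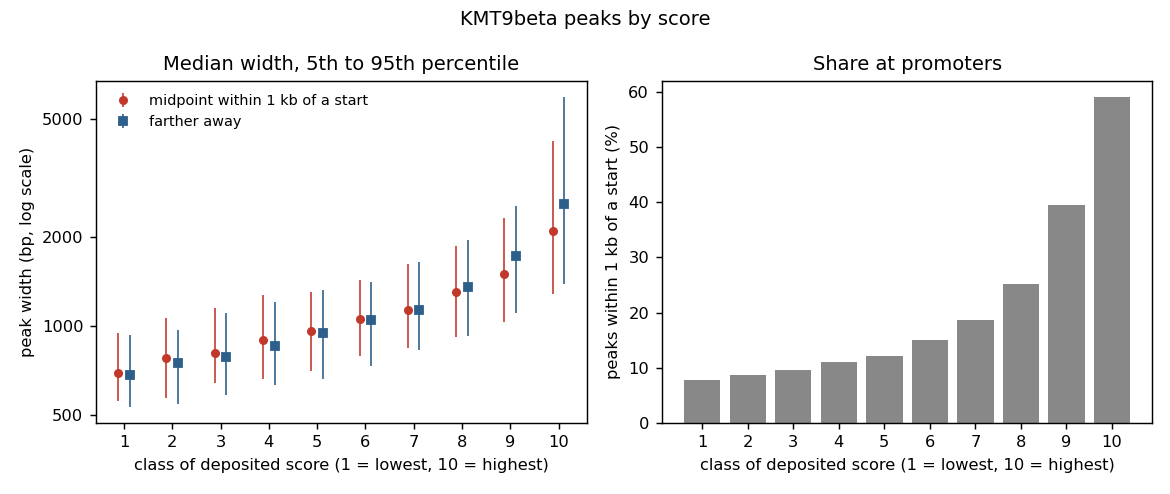
KMT9beta peaks in 10 equal classes of deposited score. Left, median peak width in bp on a log axis, with bars from the 5th to the 95th percentile, for peaks with a midpoint within 1 kb of a protein-coding start and for all others; right, the share of peaks at promoters. Median width over all peaks goes from 684 bp in the lowest class to 2295 bp in the highest, and the promoter share from 7.68% to 59.1%.

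Only 55 peaks were 10000 bp or wider, and 25 of them lay on chromosome 5 and 18 on chromosome 19. Their midpoints were at a promoter in 10 cases. The widest peak with a centre of 1 copy, 25896 bp, lay inside Prkag2, which encodes a regulatory subunit of AMP-activated kinase (chr5:24955019-24980914), and had a score of 61.63. A second Prkag2 peak of 18592 bp had a score of 273.93. Otof, the gene of the hair cell protein otoferlin, held a peak of 21904 bp with a score of 541.98, and a peak of 19912 bp with a score of 560.96 spanned Atg9b and Nos3, which encodes endothelial nitric oxide synthase. A peak of 17785 bp with a score of 545.21 had its midpoint 728 bp downstream of a start of Shh, the Sonic hedgehog ligand. On chromosome 19 the widest were 20086 bp at Cdc42bpg (score 75.78) and 18700 bp at Atg2a (score 82.63), the latter over the genes of the intestinal microRNAs Mir192 and Mir194-2. The 3 wide peaks at Prkag2, Cdc42bpg and Atg2a with scores under 100 are the only ones of that width and score in the list.

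Several of the highest scores lay on repeated sequence. The score of 3100 was reached by 2 peaks, at chr6:47678816-47687054 in an array of the Rn4.5s RNA and at chr17:39842535-39849078 over CT010467.1, an annotated ribosomal RNA locus. The chromosome 6 array held 7 peaks in 128.3 kb, with scores from 178.41 to 3100, and included the widest peak of the list (25901 bp). In the top peak of this array 99.6% of 50-base words had a further copy in the genome, with a median of 15 copies. The chromosome 17 peak with a score of 3100 had a centre of 1 copy, and 11.25% of its words had a further copy. Copies were counted in the assembled chromosomes only, so repeats missing from the assembly were not seen. The third highest score, 3013.96, lay on chromosome 17 at 13550056 to 13553313, the eighth and ninth near Scel (2275.79) and within Filip1l (2059.09), and the next near Zfp825 (2035.15), all at centres with more than 1 copy. A peak with a score of 2429.31 and a centre of 1 copy lay on chromosome 18, 6643 bp from Vmn1r238. Of the 100 highest scores 32 (32.0%, 23.0 to 42.1) had a repeated centre, against 9.79% of all peaks. The labels do not say how reads with several matches were placed, and the part of repeated sequence in these scores was not tested. Among peaks with a centre of 1 copy, the highest at promoters were at Krtcap3 and Nrbp1 (2606.25), Lrfn4 (2318.16), Nudt8 (1881.01), Drap1 (1876.09), Mus81 (1874.51) and Zbtb7a (1764.05). Of these Lrfn4, Nudt8, Drap1 and Mus81 are on chromosome 19. Drap1 encodes a repressor of transcription initiation and Mus81 a DNA endonuclease.

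The position of peaks relative to protein-coding genes was measured from the peak midpoint to the nearest of 90310 annotated starts of GENCODE M21. A promoter is the 1 kb on either side of a start. Promoters held 18569 KMT9beta peaks, 20.6% (20.4 to 20.9), and the same share was 46.5% for KMT9alpha and 21.6% for H4K12me1. It was 12.7% with only 1 start per gene, 39.0% with 5 kb on either side and 35.1% among the 36936 peaks with a score of 100 or more. The median distance was 9091 bp, against 44452 bp for bases taken every 100 bp along the chromosomes. Density was highest just after the start. The first 200 bp downstream held 6.76% of peaks on 0.487% of the bases, a ratio of 13.9, and the 200 bp upstream held 4.39%, a ratio of 9.23. Between 20 and 100 kb the ratio was 0.78 upstream and 0.88 downstream, and between 100 kb and 1 Mb it was 0.247 and 0.308. Beyond 1 Mb lay 287 peaks, the farthest 2703425 bp from Pcdh20 (chr14:91174390-91175252, score 89.21).

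Score and promoter position went together. The promoter share was 8.39% (8.03 to 8.76), 11.3%, 17.96% and 45.0% (44.3 to 45.6) from class 1 to class 4. Within 200 bp of a start 58.8% of peaks on either side were in class 4, against 12.1% of those 100 kb to 1 Mb downstream. Low-scored peaks thus lay mostly away from starts, with a median distance of 14839 bp in class 1 and 1866 bp in class 4. The 10108 promoter peaks of class 4 included those of Lrfn4 and Zbtb7a, the latter the gene of a zinc finger repressor.

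**Figure D2:**
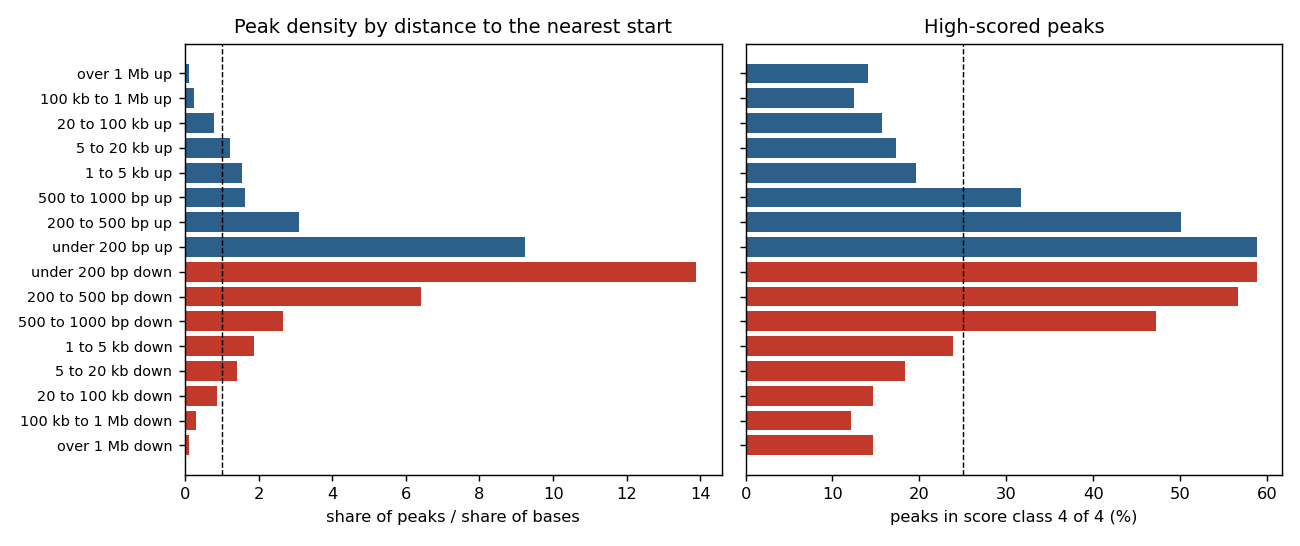
KMT9beta peaks by distance and side of the nearest protein-coding start, in bands that run from over 1 Mb upstream (blue) to over 1 Mb downstream (red). Left, the share of peaks divided by the share of autosomal bases in the band, with 1 dashed; right, the share of the band's peaks in class 4, the highest of 4 equal classes of score, with 25% dashed. The band of the first 200 bp downstream has the highest ratio, 13.9.

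Peaks leaned to the downstream side of the start. Of those within 1 kb, 6850 lay upstream and 11651 downstream, so 37.0% (36.3 to 37.7) were upstream, where 49.2% of the bases within 1 kb are upstream. The median position was 62 bp downstream. The upstream share was 39.6% within 200 bp, 31.9% between 200 and 500 bp and 37.1% between 500 and 1000 bp, and it stayed under the share of bases in each farther band (43.8% between 1 and 5 kb, where 48.6% of bases are upstream). It was 43.1% (40.8 to 45.3) among promoter peaks of class 1 and 35.2% (34.2 to 36.1) in class 4. KMT9alpha had 32.6% and H4K12me1 37.8% of promoter peaks upstream. A start chosen as the nearest of several transcripts shifts such values: with only 1 start per gene the upstream share was 23.1%.

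Inside protein-coding gene records lay 56262 peaks (62.6%, 62.2 to 62.9), where 41.3% of autosomal bases are inside them. In 9449 genes of 20 kb or more, the 42465 peaks were densest at both ends of the gene. Records of 100 kb or more that contain another protein-coding gene were left out. Shorter records were not screened for this, so peaks of genes inside them are counted too. With the record cut into 10 equal parts from its start, part 1 held 18.5%, parts 2 to 7 held 7.89% to 8.47%, and part 10 held 12.6%. The median score was 151.5 in part 1 and 86.66 in part 10.

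Of 20807 autosomal protein-coding genes 14886 (71.5%) held at least 1 peak midpoint in the record, 13944 (67.0%) had one within 1 kb of a start, and 330 (1.59%) held 20 or more. At 5423 genes there was exactly 1. Only 27 genes held 50 or more. The 330 became 163 when peaks within 1 kb of each other were merged and 46 when only scores of 100 or more were counted. The highest count was at Gm20388, 1012 peaks, but this record runs over 4434.9 kb and contains 71 other protein-coding genes. The Fgfr2 record, 2960.9 kb with 29 other genes, held 180. Fgfr2 encodes a fibroblast growth factor receptor.

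Among records with fewer than 10 other genes, Gse1, a gene of a chromatin-associated coiled-coil protein, had the most. It held 115 peaks in 352.9 kb (chr8:120228456-120581390), or 32.6 per 100 kb, and they covered 57.1% of the record. Their scores ran from 52.79 to 1232.68 with a median of 141.02, and 59 of them were in class 4 of the list. KMT9alpha had 21 peaks in Gse1 and H4K12me1 had 101. Dpp6, which encodes an auxiliary subunit of potassium channels, and Rasgef1b, a gene of a Ras exchange factor, each held 91, on chromosome 5. Camta1, a gene of a calmodulin-binding transcription activator, held 90, and Sorcs2, a gene of a sorting receptor, held 86 in 381.0 kb. Agap1, a gene of an Arf GTPase-activating protein, held 81, Rbfox3, which encodes the neuronal splicing factor NeuN, 73, and Nav2, a neuron navigator gene, 72. Ablim1, a gene of an actin-binding protein, held 68, and Cdh23, a cadherin gene of hair cells, held 62. The KMT9alpha counts in these genes ranged from 5 in Cdh23 to 85 in Dpp6, so the order by KMT9beta was not the order by KMT9alpha.

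Counts depended on length, and per 100 kb other genes led. Among genes of 20 kb or more the densest were Flnc, the gene of the actin crosslinker filamin C, with 14 peaks in 28.6 kb (48.9 per 100 kb), and Atp13a2, a gene of a lysosomal ion pump, with 10 in 20.5 kb (48.9). They were followed by Sema3f, a gene of a guidance ligand (48.3), Aspg (47.9), Micall2 (47.2), Ccdc155 (47.0), Fbxl18 (45.7), the transcription factor gene Npas1 (45.4) and the tetraspanin gene Cd82 (45.4). Peaks covered 82.2% of Aspg and 51.7% of Micall2, the extremes of these 9. Their KMT9alpha counts were 0 to 5. All 9 had 52.8% G and C or more.

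**Figure D3:**
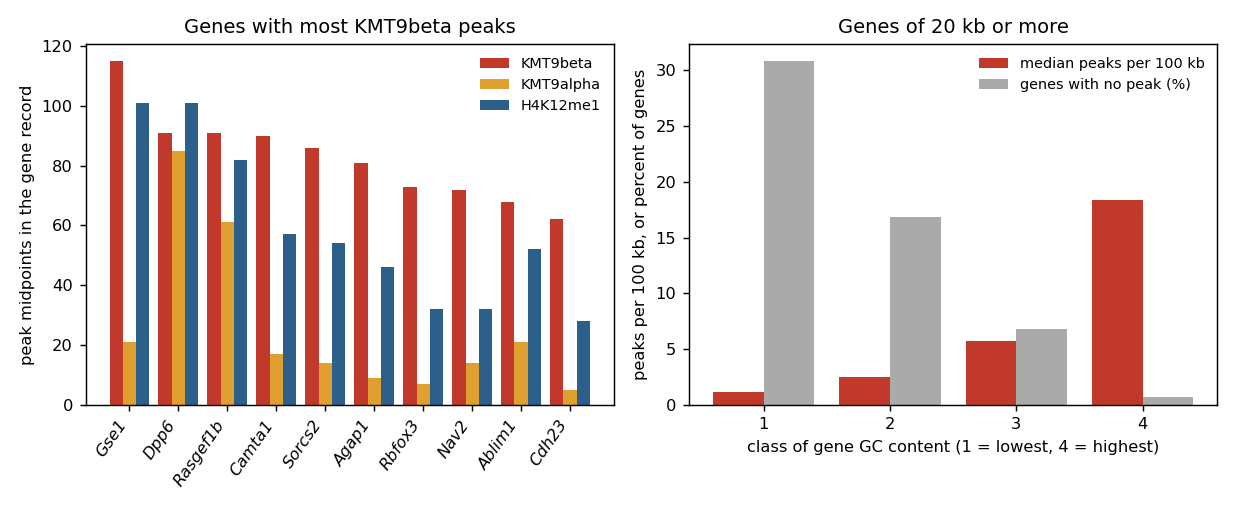
Left, peak midpoints of KMT9beta, KMT9alpha and H4K12me1 in the 10 genes with most KMT9beta peaks among records that contain fewer than 10 other protein-coding genes. Right, genes of 20 kb or more in 4 equal classes of their G and C content, with the median number of KMT9beta peaks per 100 kb and the percentage of genes with no peak; the median goes from 1.14 to 18.3.

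Peak density in genes rose with their G and C content, with overlap between genes with many peaks and genes with none. In the 9678 genes of 20 kb or more, the median density was 1.14, 2.52, 5.69 and 18.3 peaks per 100 kb over 4 equal classes of genes from the lowest G and C content to the highest. The share with no peak was 30.8%, 16.9%, 6.78% and 0.661%. Spearman's rho between G and C content and density was 0.79 over these genes, which share 1 library. Density was also lower in longer genes, with a median of 5.78 per 100 kb at 20 to 50 kb and 0.691 at 500 kb or more. Dpp6 and Rasgef1b, with 91 peaks each, had 43.9% and 43.8% G and C. The longest genes with no KMT9beta peak were Rbfox1, a neuronal splicing factor gene (1526.2 kb), Cntn5, a contactin gene (1243.9 kb), Csmd3 (1211.4 kb), the netrin receptor gene Dcc (1097.4 kb) and the glutamate receptor gene Grm7 (921.6 kb). Their G and C content was 35.2% to 42.1%. The longest stretches with no peak were 2612.3 kb around Pcdh9, 2205.1 kb around Epha7, 2079.2 kb around Grm7, 1894.4 kb around Rbfox1 and 1805.5 kb around Ctnna3 and Lrrtm3, and 56 such stretches exceeded 1 Mb. G and C content also affects how well fragments are amplified and mapped, and its part in these differences was not tested.

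In 200 bp at the midpoint the median G and C content was 55% over all peaks and 42.0% over windows placed every 10 kb, and the median number of CpGs was 4 and 1. Promoter peaks had 61.0% G and C and 11 CpGs, and distal peaks 54.5% and 3. Within score class 4 the medians were 65.5% and 16 at promoters and 55.5% and 4 away from them. The letters GGGCGG, on either strand, the core bound by SP and KLF factors, were in 44.6% of class 4 promoter windows, 34.5% of all promoter windows and 8.50% of distal ones. They were in 1.98% of the spaced windows and in 32.8% of windows centred on the annotated starts themselves. CCGGAAG, a motif of ETS factors, was in 5.88% of promoter windows, 2.60% of distal ones, 0.589% of the spaced windows and 8.16% of those at starts. Among distal windows it was in 7.84% of those with a repeated centre and 1.91% of those with a centre of 1 copy. TGANTCA, the AP-1 motif, was in 5.15% of distal windows and 6.02% of the spaced windows. CTTTGAT, bound by the TCF and LEF factors of the Wnt pathway, was in 2.08% and 3.99%. A match describes letters in the window and not a bound site.

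Peaks were unevenly spaced. The median gap to the next peak was 5152 bp (5073 to 5242), 20.1% of gaps were 1 kb or less and 49.4% were 5 kb or less, while 5.78% exceeded 100 kb. The median gap was 8236 bp after merging peaks within 1 kb and 10440 bp at a score of 100 or more. A cluster is here a run of 3 or more peaks with every gap 5 kb or less. Clusters held 44945 peaks, 50.0% of the list, in 7547 runs with a median span of 11.3 kb. With a largest gap of 2.5 kb the share was 32.9%. The same rule put 17.6% of KMT9alpha and 37.2% of H4K12me1 peaks in clusters, but those lists are shorter, and a shorter list has wider gaps. Peaks with no neighbour within 5 kb made up 34.4% of the list.

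Peaks in long runs had higher scores but were not more often at promoters. The median score was 78.49 for peaks alone and 126.93 in runs of 20 or more, and the share in score class 4 was 20.6% and 44.9%. The promoter share was 22.5% (22.0 to 22.9) and 18.95% (17.9 to 20.01). Chromosomes 5 and 19 held 11.0% of the peaks alone and 32.2% of those in runs of 20 or more. The part of these chromosomes in the differences was not tested. Scores of neighbours were only weakly alike: Spearman's rho between a peak and the next was 0.14 over the 18043 pairs with a gap under 1 kb and 0.02 over pairs more than 100 kb apart. No promoter peak was present in 3472 clusters (46.0%).

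**Figure D4:**
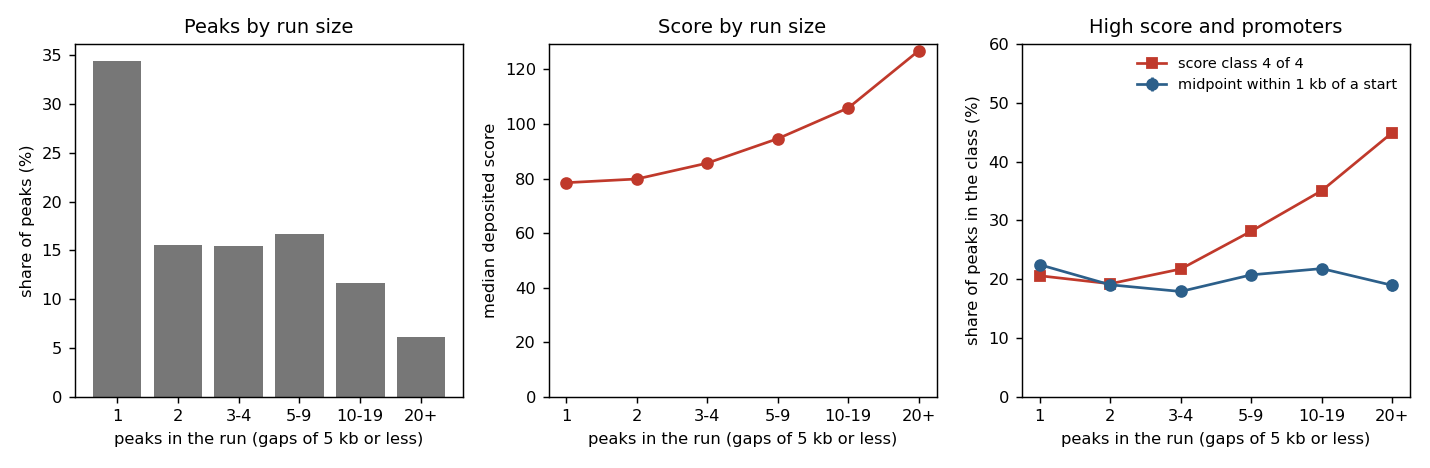
KMT9beta peaks by the number of peaks in their run, where neighbours in a run are 5 kb or less apart. The panels show the share of all peaks, the median deposited score, and the share of each run size in the highest of 4 score classes (red) and at promoters (blue, with exact 95% intervals). The median score goes from 78.49 for peaks alone to 126.93 in runs of 20 or more, and the promoter share stays between 17.9% and 22.5%.

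There were 186 clusters of 20 or more peaks, 33 on chromosome 19, 21 on chromosome 11 and 19 on chromosome 5. The one with the most peaks, 69 in 199.5 kb, ran from within Gse1 over Gins2, a DNA replication gene (chr8:120390363-120589865), and 59.0% of its bases were under a peak. On chromosome 19 a cluster of 66 peaks in 221.4 kb lay over Neurl1a and Sh3pxd2a, the latter a gene of a podosome scaffold, and held 2 promoter peaks. Another of 65 peaks ran across 21 genes from Dpf2, a chromatin remodelling gene, to Batf2, with 20 promoter peaks. A cluster of 63 contained Sufu, the gene of an inhibitor of Hedgehog signalling, and Trim8, one of 60 contained Afap1l2 and part of Ablim1, one of 54 contained Nrxn2, a neurexin gene, and one of 53 contained Chka, the gene of a choline kinase, and 3 Gstp genes of glutathione transferases. On chromosome 5 a cluster of 60 peaks lay in Prkag2 and covered 85.8% of 278.5 kb, the highest coverage of the 10. Chromosome 10 had a cluster of 55 at Gng7, a gene of a G protein subunit, and one of 52 over Ptbp1, a splicing factor gene, and Med16, a Mediator gene. KMT9alpha peaks within these 10 clusters numbered from 14 to 93, the highest in Prkag2.

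The largest cluster without a promoter peak, picked after its values were seen, lay in the interval between Hrh1, a histamine receptor gene, and Atg7, an autophagy gene (chr6:114489730-114637717). It held 52 peaks in 148.0 kb, covered 80.1% of it, and overlapped no annotated gene. Its median score was 387.93, higher than in any of the 10 clusters with most peaks, and its highest was 1734.09. KMT9alpha had 60 peaks in the same interval and H4K12me1 had 61. The next without a promoter peak were 38 peaks between Lemd2 and Grm4 on chromosome 17, over several long non-coding RNA genes, with a median score of 210.6, and 36 and 30 peaks between Cebpb, a transcription factor gene, and Ptpn1, a phosphatase gene, on chromosome 2. Whether these intervals have a changed copy number in the clone was not tested.

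Chromosomes differed in peak density from 19.5 peaks per Mb on chromosome 3 to 93.1 on chromosome 19, with a median of 37.4. Chromosome 11 had 60.2 and chromosome 5 had 57.8. Across the 19 chromosomes Spearman's rho was 0.82 with genes per Mb and 0.86 with G and C content. Chromosomes 5 and 19 had 6.79 and 7.53 peaks per protein-coding gene, where the other 17 had 3.03 to 5.30. They also had the lowest promoter shares, 15.5% and 13.9%. KMT9alpha had 24.2 and 29.3 peaks per Mb on chromosomes 5 and 19, and H4K12me1 had 44.0 and 90.8, against 10.7 and 25.1 over all autosomes. The copy number of chromosomes 5 and 19 in the clone was not tested.

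Gene lists were read against the 67.0% of all genes with a promoter peak. Of 20 intestinal stem cell genes 19 had one, with a median highest score of 333.87 against 203.59 over all genes with a promoter peak. Axin2, a Wnt target and inhibitor, had 757.82, Ascl2, a stem cell transcription factor gene, had 747.04, and Lgr5, the stem cell receptor gene, had 368.52. Ephb2, a receptor gene of crypt cells, held 46 peaks and Lrig1, a negative regulator of receptor signalling, held 12. Olfm4 had no peak. Of 20 Wnt pathway genes 19 had a promoter peak. Lrp5, a Wnt co-receptor gene, had a score of 845.65 and 29 peaks, Ccnd1, the cyclin D1 gene, had 726.3, and Tcf7l2, a transcription factor gene of the pathway, held 53 peaks. Lrp5 and Tcf7l2 are on chromosome 19. Tcf7l1 held 22, and the receptor gene Fzd5 had no promoter peak.

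Epithelial identity genes had promoter peaks at 18 of 20, with Esrp1, a splicing regulator gene, at 784.92 and the claudin gene Cldn3 at 616.57, while Tjp1 and Grhl2 held 12 peaks each. Cytosolic ribosomal protein genes had them at 20 of 20, with Rpl7 at 790.54 (the same score as its neighbour Rdh10) and Rpl10a at 581.77. Rpl11 and Rps14 held 5 peaks each. Colonocyte and enterocyte genes had promoter peaks at 11 of 20, with Klf4, a differentiation factor gene, at 725.11 and Cdhr5 at 291.99. Hnf4a held 14 peaks and Anpep 7. Car1, Car4, Krt20, Sis, Fabp2 and Guca2a, genes of mature intestinal epithelium, had no peak in the record. Secretory cell genes had them at 12 of 20, with Insm1 at 752.28 and Gfi1 at 698.92, both transcription factor genes, while Fcgbp held 10 peaks and Trpm5 9. Among markers of other cell types, fibroblast and endothelial genes had promoter peaks at 16 of 20, with Flt1 at 438.61 and Pdgfra at 323.1, and Vwf held 21 peaks and Pdgfrb 11. Neuron genes had them at 14 of 20, with Rbfox3 at 397.47 and Gad1 at 209.26, and Camk2a held 13 peaks. Immune genes had them at 7 of 20. A promoter peak does not show that the gene was expressed.

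Hox genes had a promoter peak at 33 of 39, with Hoxa10 at 723.05 and Hoxb9 at 538.38, and Hoxa3 held 12 peaks and Hoxc5 10, their long records overlapping other Hox genes. Clustered protocadherin genes had one at 13 of 57. Pcdhgc3 had 264.61 and Pcdhga12 178.63, and Pcdhga1 and Pcdhga2 held 17 peaks each, but their records share the same exons. Olfactory and vomeronasal receptor genes had one at 30 of 1455 (2.06%), with Vmn1r4 at 235.1 and Olfr1414 at 132.67, and Olfr643 and Olfr718-ps1 held 3 peaks each. Numbered zinc finger genes had one at 264 of 358 (73.7%), with Zfp703 at 1125.83 and Zfp687 at 746.76, while Zfp423 held 36 peaks and Zfp516 25.

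Among the genes of KMT9beta itself and of the methyltransferases it partners, a midpoint lay within 1 kb of a start at 6 of 8. The median of their highest promoter scores was 98.6, against 203.59 over all genes with a promoter peak. Bud23, an 18S ribosomal RNA methyltransferase gene, had a score of 235.37, and Thumpd3 and Trmt11, which act on transfer RNA, had 160.43 and 110.39. Mettl5, another 18S ribosomal RNA methyltransferase gene, had 86.81, N6amt1, which encodes KMT9alpha, had 83.17, and Thumpd2 had 72. Alkbh8, a transfer RNA modification gene, had none. Trmt112 lay entirely under a peak of 6075 bp with a score of 750.74 (chr19:6908988-6915062). The midpoint of this peak was 1861 bp from the nearest annotated start, so that the midpoint rule did not count it.

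Among immune genes Fcgr3 stood out with a promoter score of 1495.83, against 213.15 for the next, Cd14, and 86.38 for Cd4. Csf1r held 4 peaks and Cd4 3. The Fcgr3 peak (chr1:171063439-171067311) also covered 5 transfer RNA genes. It was the first of 3 peaks, with scores of 1495.83, 1816.43 and 1795.77, over a block of 15 transfer RNA genes in 17.8 kb. The block repeats the same 5 families, for glutamate, glycine, aspartate, leucine and glycine, 3 times in the same order, with 1 peak on each unit. In 2 of the 3 peaks the central 50 bases had more than 1 copy.

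Genes of small RNAs were then counted, a comparison chosen after this block had been seen. Of 386 RefSeq transfer RNA genes on the autosomes 194 overlapped a KMT9beta peak (50.3%, 45.2 to 55.4), while peaks cover 4.54% of the autosomes. Overlap by 1 base was enough. Of the 343 farther than 1 kb from a protein-coding start 155 did (45.2%, 39.8 to 50.6). Counting only peaks with a centre of 1 copy, 171 of 386 did (44.3%). The transfer RNA genes lay under 134 peaks, 97 of which (72.4%) were in score class 4, with a median score of 307.2. KMT9alpha overlapped 25.4% (21.1 to 30.04) and H4K12me1 14.0% (10.7 to 17.9) of the same genes, in shorter lists that cover 1.13% and 1.92% of the autosomes. Divided by the share of bases covered, KMT9alpha was thus higher than KMT9beta. The share under a KMT9beta peak was 30.2% for microRNA genes, 12.6% for small nucleolar RNA genes and 4.65% for small nuclear RNA genes. Farther than 1 kb from a protein-coding start these shares were 21.8%, 10.9% and 4.40%. With only peaks of 1-copy centres, over all genes of each class, they were 29.6%, 10.1% and 2.81%. Of 60 ribosomal RNA genes 50 overlapped a peak, and 40 of these are the n-R5s genes of the 5S array on chromosome 8, where 14 peaks with scores from 59.39 to 1553.44 covered 92.8 of 111.4 kb. Counting only peaks with a centre of 1 copy, 1 of the 60 ribosomal RNA genes overlapped a peak.

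**Figure D5:**
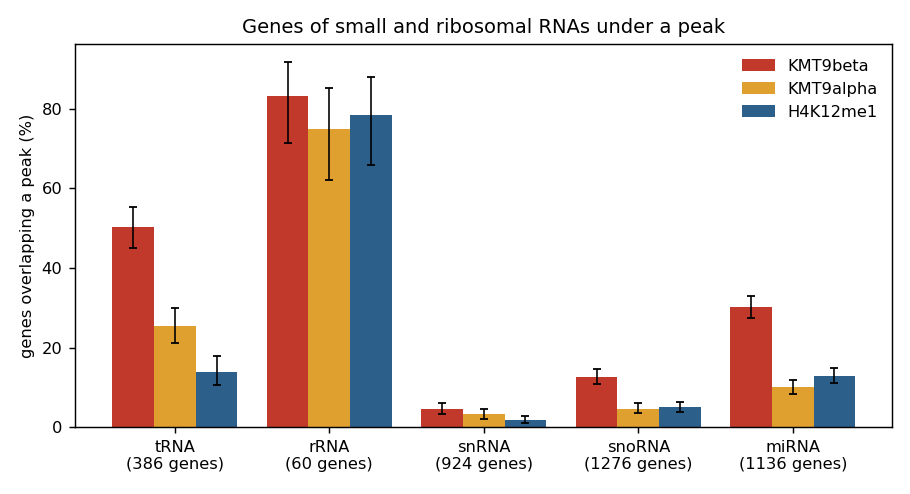
Percentage of RefSeq genes of each RNA class on chromosomes 1 to 19 that overlap a peak of KMT9beta, KMT9alpha or H4K12me1 by at least 1 base, with exact 95% intervals over genes. Transfer RNA genes are at 50.3%, 25.4% and 14.0%, and ribosomal RNA genes, most of them in 1 array of near-identical copies, at 83.3%, 75% and 78.3%.

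Transfer RNA genes were not covered evenly. On chromosome 11, 37 of 47 lay under a peak and on chromosome 1, 29 of 37, whereas on chromosome 13 it was 32 of 105 and on chromosome 6 it was 5 of 53. By amino acid the shares were highest for leucine (20 of 25) and asparagine (10 of 13) and lowest for cysteine (7 of 56) and glutamine (3 of 15). The letters GGTTCGA were in 142 of the 194 genes under a peak (73.2%) and in 84 of the 192 others (43.8%), and in 0.259% of windows of 200 bp placed every 10 kb, on either strand. Genes of 1 family share most of their sequence and often lie side by side under the same peak, so they are not independent. Which of these genes are transcribed in the organoids is not analysed here.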

How the data were processed

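Chromatin of AOM/DSS tumour organoids was sequenced in 4 libraries, 1 per antibody and 1 input. Per the labels' protocols reads were mapped to mm10 with STAR, while the submitters' processing notes name Bowtie2. Per the deposited peak names peaks were called with MACS. The sources used here do not give the version, threshold or control. The deposited score of each peak was used as the authors gave it, to rank or split peaks of this list. No depth is given.

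Peaks were related to GENCODE M21 and RefSeq genes on GRCm38.p6 in Python 3.11.15 (pandas 2.3.3, scipy 1.17.1, matplotlib 3.10.9). Distances run from the peak midpoint to the nearest start. A peak has a repeated centre when its central 50 bases occur more than once in the assembly. The distance, cluster and gene counts were tested on simulated peaks. Shares have Clopper-Pearson intervals. Peaks on X, Y and unplaced sequences were left out of the main values.

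The peaks, the gene lists and the tests were chosen with earlier results of these data known. Named genes were the 10 with most peaks, the 10 of 20 kb or more with most per 100 kb, the 10 highest and 10 widest peaks, the 10 clusters with most peaks, the 5 longest genes and 5 longest stretches without a peak, all members of the TRMT112 list, and per other list the 2 with the highest promoter score and the 2 with most peaks, ties by symbol. Other genes named beside them, the ranking of records with fewer than 10 other genes and of single-copy peaks, the small RNA genes and the clusters without a promoter peak were chosen after their values were seen. A few of the genes and sequences so chosen are left out of the text.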

Additional observations from a re-analysis of the deposited data

Results flagged for a closer look

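Chromosome X held 361 KMT9beta peaks (2.21 per Mb), chromosome Y 52 (0.590 per Mb) and unplaced sequences 124, none of which enter the values above, where the lowest autosome had 19.5 per Mb. The input is not analysed here, so there is no control level for these counts. On X, KMT9alpha had 2.53 peaks per Mb and H4K12me1 1.16.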

How the results depend on the processing

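The promoter share of 20.6% was 26.5% within 2 kb, 39.0% within 5 kb, 24.2% when any base of the peak counted, 12.7% with 1 start per gene, 35.1% among peaks with a score of 100 or more, 21.7% without chromosomes 5 and 19, and 22.4% without repeated centres. The median width of score class 4, 1741 bp, was 1561 bp with classes taken among distal peaks, 2165 bp among promoter peaks, 1691 bp without chromosomes 5 and 19 and 1768 bp without repeated centres. In each it exceeded class 1, whose median was 730 to 847 bp. The upstream share of 37.0% was 23.1% with 1 start per gene and 35.4% at a score of 100 or more. The 330 genes with 20 or more peaks became 163 when peaks within 1 kb were merged and 46 at a score of 100 or more. Of the 10 genes with most peaks 9 and 6 were shared. The clustered share of 50.0% was 32.9% with a largest gap of 2.5 kb, 70.7% with a largest gap 2.5 times the main one, 34.5% for runs of 5 or more, 34.7% at a score of 100 or more, 47.7% without chromosomes 5 and 19, 51.9% without repeated centres and 35.0% after merging within 1 kb. The median gap became 8236 bp after merging and 10440 bp at a score of 100 or more. The cause of these shifts was not tested, beyond the change in window, start set or number of peaks that each setting makes by construction. The other 5 of 29 alternatives stayed within the main interval or within 1.5 times the main count. Leaving out repeated centres, merging for clusters, and leaving out records with 10 or more other genes were chosen after seeing the data. No paired analysis was possible because each antibody has 1 library. The unknown depth limits which low-scored peaks can be called.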
